A study of Mus musculus with 15 samples.

Results

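The collagen gene family of the mouse was followed in the developing secondary palate, the shelf tissue that grows out from the upper jaw, meets in the midline, fuses and turns partly into bone and muscle. Members were all protein-coding genes whose symbol has the form of a collagen alpha chain (Col, the type number, a, the chain number). The rule found 44 genes of the 54232 in the table of gene counts, and it used names only, with no measured value. They fall into 11 fibrillar chains, 9 network-forming chains, 9 fibril-associated collagens with interrupted triple helices (FACITs) and 15 others, which hold type VI, transmembrane and further collagens. The tissue came from wild-type mice, whose strain and sex the labels do not state, and was dissected before birth at E13.5, E14.5, E15.5 and E16.5 (days of embryonic life) and again on the day of birth, P0. There are 3 libraries for a stage, and since every library pools the palates of 3 embryos, the variation measured here is that between pools. No treatment and no mutant enters any comparison here. The comparisons ask how expression changes with stage.

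Collagens are secreted proteins of 3 chains wound into a triple helix. A chain can take part because its helical stretch repeats glycine and a pair of other residues, often proline and hydroxyproline. Fibrillar collagens (types I, II, III, V, XI, XXIV and XXVII) assemble into the fibrils of bone, dermis, tendon and cartilage, type I being the main collagen of bone and type II that of cartilage. Network collagens build sheets, such as the type IV lattice of basement membranes. FACITs sit on the surface of fibrils, and type VI collagen forms beaded filaments around cells. Palatal shelf mesenchyme, most of it derived from cranial neural crest, is known to lay down collagen before fusion and to form bone in the palatine processes afterwards.

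The repeat that defines the family can be read in the genes. Each line below gives 54 bases of coding sequence, which encode 18 residues, for a gene on which the results turn. The bases come from the GENCODE M21 transcripts on GRCm38, and capitals mark the glycine codon that opens each triplet.
Col1a1, chr11:94939904-94939957, plus strand: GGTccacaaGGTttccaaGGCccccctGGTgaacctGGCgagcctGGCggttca
Col1a2, chr6:4515481-4515534, plus strand: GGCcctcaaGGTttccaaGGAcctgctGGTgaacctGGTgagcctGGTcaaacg
Col2a1, chr15:97996489-97996542, minus strand: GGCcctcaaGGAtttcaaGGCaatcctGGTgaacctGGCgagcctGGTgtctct
Col22a1, chr15:71857251-71857304, minus strand: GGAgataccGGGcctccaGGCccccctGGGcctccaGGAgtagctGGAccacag
Col9a1, chr1:24210373-24210426, plus strand: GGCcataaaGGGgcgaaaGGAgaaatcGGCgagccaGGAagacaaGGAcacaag
Col4a1, chr8:11245211-11245264, minus strand: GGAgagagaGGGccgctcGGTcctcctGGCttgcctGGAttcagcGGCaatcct
Col10a1, chr10:34394928-34394981, plus strand: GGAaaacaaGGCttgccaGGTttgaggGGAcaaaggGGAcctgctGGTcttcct
The first 6 lines are whole exons, namely coding exon 8 of 51 in Col1a1, 8 of 52 in Col1a2, 10 of 54 in Col2a1, 45 of 63 in Col22a1, 18 of 38 in Col9a1 and 7 of 52 in Col4a1. Col10a1 has only 2 coding exons, and its line is a stretch inside the second. Each line was picked from inside the gene's longest unbroken run of triplets that open with a glycine codon. That such a codon opens every triplet in all 7 lines therefore follows from the choice.

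The classes differed in how far that repeat runs and how it is cut into exons. The longest unbroken run of such triplets spanned 216 to 344 triplets in the 11 fibrillar genes, with a median of 338. In FACITs it spanned 32 to 113, in network collagens 39 to 66 and in the others 23 to 87. Of the inner coding exons of fibrillar genes 48.6% were exactly 54 bases long, against 26.3% in FACITs, 4.23% in network collagens and 7.26% in the others. These are properties of the annotated main coding transcripts and carry no measurement of the palate.

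Gene counts summed to between 21470759 and 69019565 per library, the shallowest being P0 replicate 3. No pair of libraries of a stage agreed within sampling noise (chi-square per degree of freedom 21.5 to 162). E14.5 replicate 1 was the lowest of all 15 libraries in 20 of 44 collagens, against 6 for E13.5 replicate 2. Both were the lowest of their stage in 35 collagens. E14.5 replicate 3 was the highest of its stage in 29. The summed level of 6 choroid plexus markers (Ttr, Kcne2, Otx2, Folr1, Clic6 and Kl) was 1409 CPM (gene counts scaled for library depth) in E14.5 replicate 1. It was 774 in E14.5 replicate 3 and 27.2 to 489 in the other 13. Whether carried-over tissue has a part in the low collagen values of E14.5 replicate 1 was not tested, and values without that library are given where leaving it out ends a call or moves a count by over 1.5 times. Markers of palate tissue were present in all libraries, with oral epithelium markers summing to between 234 and 3122 CPM. Of 5 tooth markers, which summed to between 0.66 and 21.9 CPM, 4 were at 0 in some library and 1 of the 4 tested (Amelx) was higher at E15.5 than at E14.5, a call lost without any 1 of the 3 E14.5 libraries or E15.5 replicate 1 (edgeR adjusted p 0.0525 to 0.076). All 4 were higher at P0 than at E13.5, as were 29.8% of all genes tested. Of the choroid plexus markers Ttr and Kcne2 were lower at E15.5 than at E14.5, with log2 fold changes of -7.70 and -7.79 (edgeR adjusted p 0.0240 and 0.0151). Both calls were lost without E15.5 replicate 2 or 3 (0.0604 to 0.0882), and that of Ttr also without E14.5 replicate 1 (0.0714).

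Collagen genes took a larger share of the counts from E15.5 on. The 44 genes held 1.46 ± 0.42% of all gene counts at E13.5 and 1.30 ± 0.59% at E14.5 (mean ± SD, n = 3 for each stage here and below). The share was 4.36 ± 0.22% (E15.5), 4.25 ± 0.58% (E16.5) and 5.07 ± 1.26% (P0) afterwards. Every library from E15.5 on lay above every earlier one, with 3.87% as the lowest later value and 1.86% as the highest earlier one. The difference of 3.06 percentage points between E15.5 and E14.5, and that of 3.61 points between P0 and E13.5, each gave an exact two-sided permutation p of 0.1, which is the smallest that 3 libraries against 3 allow. Adjusted over the 5 stage comparisons made, both were 0.25. Without E14.5 replicate 1 the first difference was 2.74 points. Counted per kilobase of exon the second was 1.19 points. In bulk tissue, more cells of a collagen-making type and more collagen RNA in each cell cannot be told apart.

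**Figure D1:**
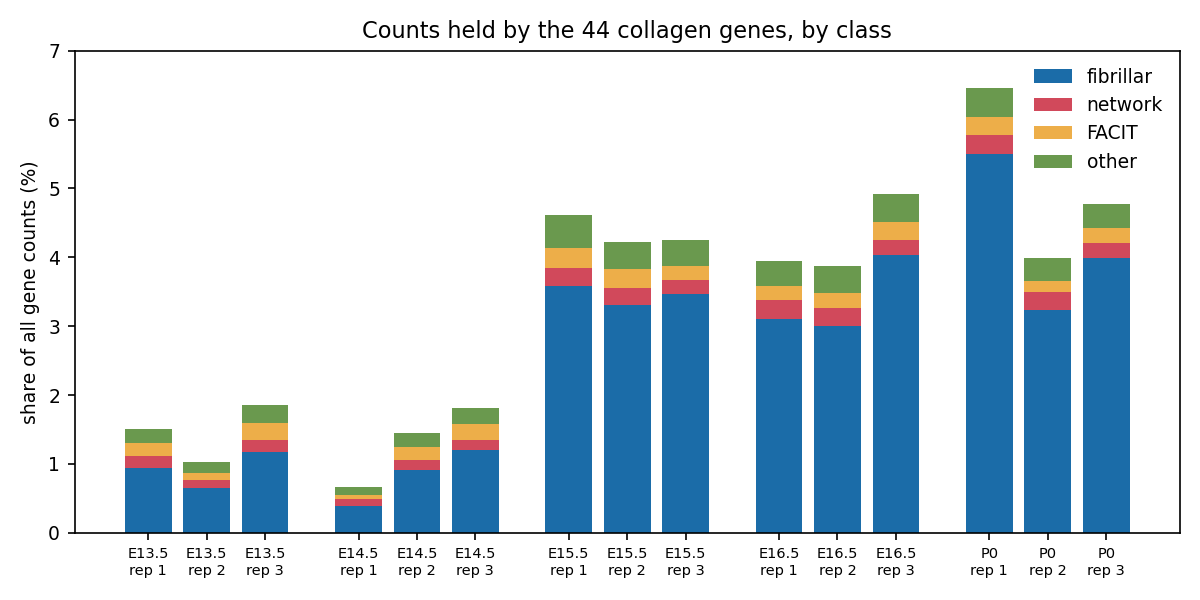
Share of all gene counts held by the 44 collagen genes in each of the 15 libraries, as stacked bars coloured by class, in percent. All 9 libraries from E15.5 on reach at least 3.87%, the 6 earlier ones at most 1.86%, and most of the added height is fibrillar.

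The make-up of the family shifted as its share grew. Type I collagen (Col1a1 and Col1a2) held 23.6 ± 3.3% of collagen counts at E13.5 and 25.3 ± 0.86% at E14.5, and then 57.5 ± 3.89% (E15.5), 58.8 ± 4.0% (E16.5) and 65.0 ± 3.93% (P0). After division by transcript length, the cartilage chains Col2a1, Col9a1, Col9a2 and Col9a3 together made up 22.1% of the family at E13.5, 4.18% at E15.5 and 1.60% at P0. FACITs went from 14.2 ± 2.33% per kb to 3.63 ± 0.31% between E13.5 and P0, and network collagens from 9.50 ± 1.34% to 4.80 ± 1.12%. Shares within a family sum to 100%, so a smaller share does not show a lower level.

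The order of the genes per kilobase of transcript changed accordingly. At E13.5 the highest was Col3a1, followed by Col1a2, Col2a1 and Col1a1, at 372 ± 88.4, 343 ± 89.4, 309.7 ± 138 and 236 ± 57.6 CPM per kb. Each neighbour in this order differed from the next by less than the larger of their SDs. The order also depends on the length used. With the exon lengths in the deposited table, the E13.5 mean ratio of Col1a1 to Col3a1 was 1.02, against 0.64 per kilobase of transcript. That of Col1a1 to Col1a2 was 1.45, against 0.69. At P0 Col1a1 came first with 3363 ± 1303 CPM per kb and Col1a2 next with 2971 ± 957, again within their SDs. Col3a1 followed with 903 ± 182, and Col2a1 was at rank 12 with 89.1 ± 69.6.

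Between E14.5 and E15.5 many collagens were called as higher and none as lower. Of the 44 genes, 23 were higher at E15.5 with an adjusted p under 0.05 in edgeR's quasi-likelihood test, fitted over all 22151 genes tested with Benjamini-Hochberg adjustment, and 0 were lower. Across all genes tested 26.1% were called in this comparison, 12.7% as higher and 13.4% as lower. The median log2 fold change was 1.08 over the 44 collagens and 0.03 over all genes. By class, 7 of 11 fibrillar, 3 of 9 network, 5 of 9 FACIT and 8 of 15 other collagens were called. Without E14.5 replicate 1 the count of collagens was 14, where 2320 of 22824 genes tested were called. Without E15.5 replicate 1 it was 15, where 5353 of 23063 were called. The main fit called 5773 of 22151. With any 1 other library left out the count of collagens lay between 18 and 23. Of the 23 genes, 14 kept their call in all 15 fits that leave out 1 library.

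**Figure D2:**
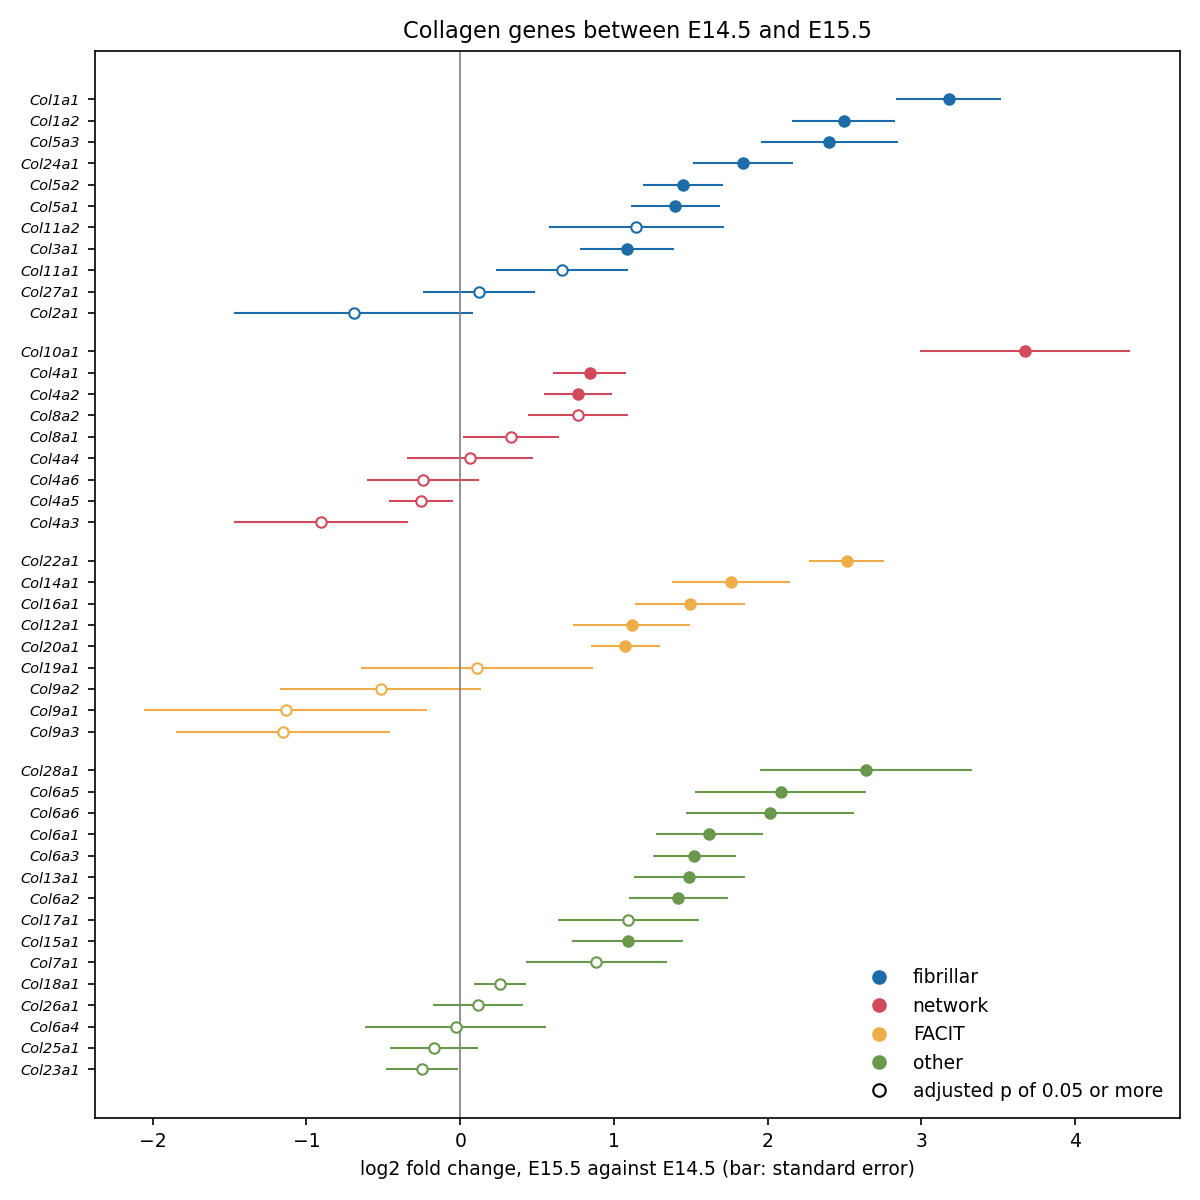
Log2 fold change of each of the 44 collagen genes at E15.5 against E14.5 with its standard error, grouped and coloured by class; open circles have an adjusted p of 0.05 or more. The 23 filled circles all lie to the right of 0, with Col10a1 at 3.67 and Col1a1 at 3.18, and every circle to the left of 0 is open.

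In edgeR the other single steps moved few genes of any kind, collagens among them. Between E13.5 and E14.5 the edgeR test called 0 of 44, where 0.00903% of all genes were called. DESeq2 also called 0, where it called 4.51% of all genes, and 2 collagens had an unadjusted p under 0.05, against 16% of all genes. Between E15.5 and E16.5 edgeR called 1, Col10a1, against 1.41% of all genes, while DESeq2 called 5, against 9.45%. Between E16.5 and P0 edgeR called 0 of 44, against 0.352%. In that last step DESeq2 called 0, against 2.99% of all genes, and 1 collagen had an unadjusted p under 0.05, against 11.7% of all genes. Over the whole span from E13.5 to P0, 25 collagens were higher and 4 lower, Col9a3, Col23a1, Col25a1 and Col26a1, where 56.6% of all genes were called, 29.8% as higher and 26.8% as lower. DESeq2 called 26 as higher and 7 as lower, where it called 59.6% of all genes, 31.8% as higher and 27.8% as lower. Without P0 replicate 1 edgeR called 24 as higher and 7 as lower, where it called 11531 of 23004 genes tested. The median log2 fold change over that span was 1.16 for the collagens and 0.03 for all genes. Among all 5 stages 31 of 44 collagens differed, against 59.1% of all genes, a share of 70.5%. The span and the single steps share libraries, so their counts are not independent of each other.

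**Figure D3:**
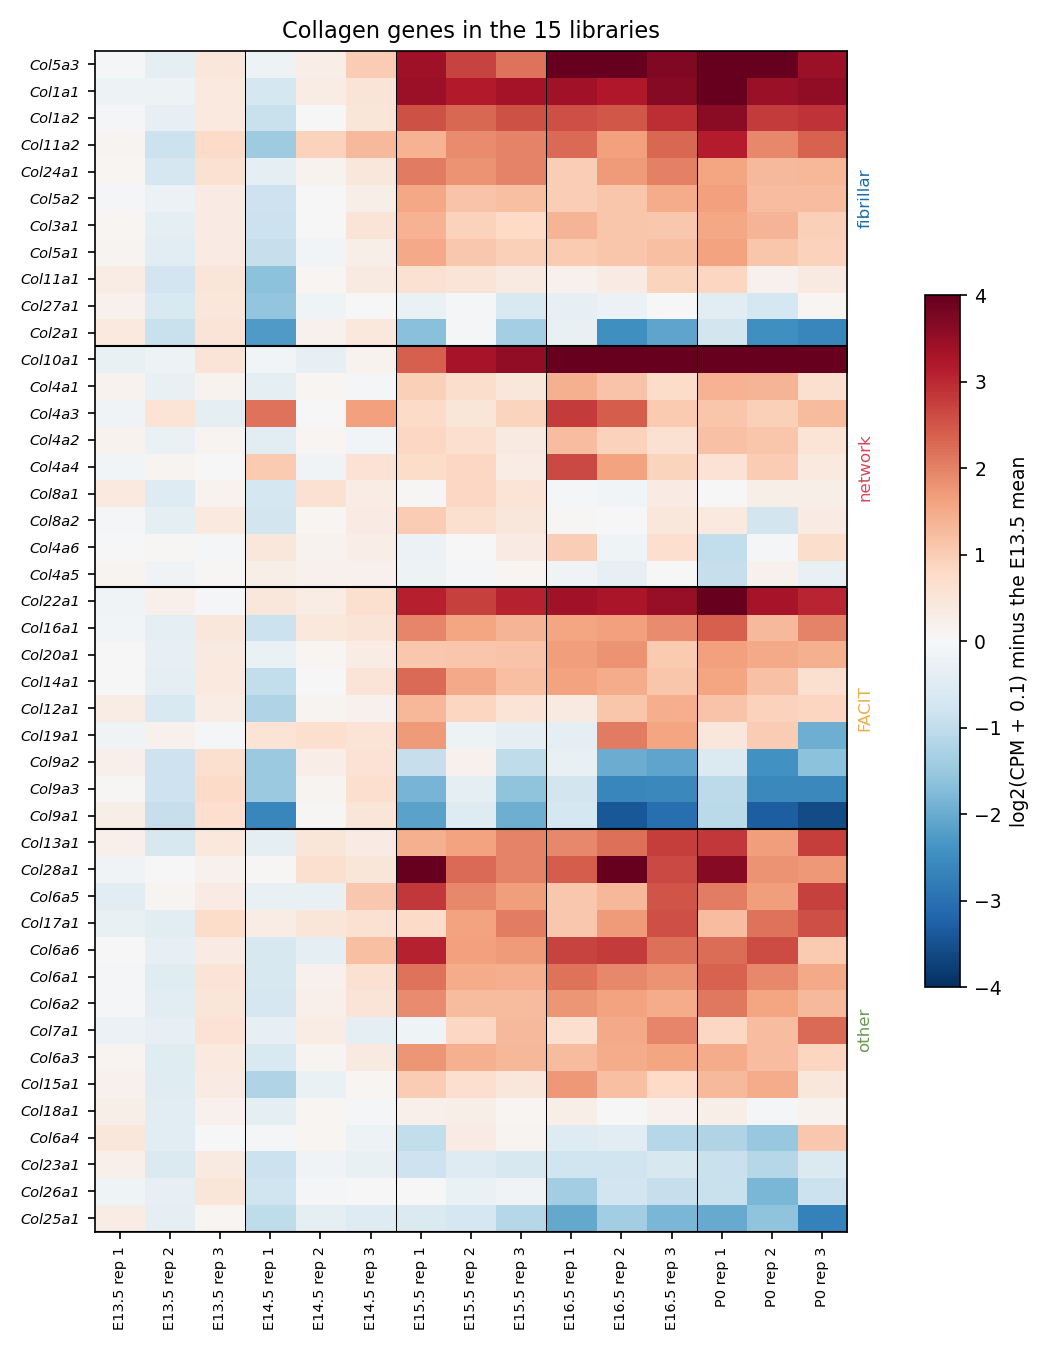
Log2(CPM + 0.1) of the 44 collagen genes in the 15 libraries minus the gene's E13.5 mean, with genes grouped by class and sorted by their P0 value; the colour scale ends at -4 and 4. Red fills most fibrillar and type VI rows from E15.5 on, Col10a1, Col1a1 and Col5a3 reach the end of the scale, and Col9a1, Col2a1 and Col25a1 turn blue.

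Type I collagen rose at E15.5. Col1a1 counts came to 1201, 1203 and 1794 CPM in the E13.5 libraries and 850.2, 1687 and 1975 CPM in the E14.5 ones. Later Col1a1 values were 14676, 12327 and 13787 CPM (E15.5), 14150.4, 12569 and 17067 CPM (E16.5) and 28846, 14998 and 15978 CPM (P0). Col1a1, at chr11:94936224-94953042 (GRCm38), encodes the alpha 1 chain of type I collagen, of which the trimer takes a pair for each alpha 2 chain. No library from E15.5 on came near the earlier ones, and P0 replicate 1 was the highest of all 15. The log2 fold change was 3.18 ± 0.34 (SE; edgeR adjusted p = 2.54e-04) at E15.5 against E14.5, a 9.04-fold rise, and 3.83 ± 0.35 (SE; edgeR adjusted p = 7.27e-06) at P0 against E13.5.

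The partner chain followed with a smaller rise. Col1a2 measured 1688, 1444 and 2367 CPM in the E13.5 libraries, and the E14.5 libraries gave 975, 1806 and 2489 CPM. From E15.5 on, Col1a2 had 10412, 8831 and 10443 CPM, then 10765, 10079 and 13853 at E16.5 and 21782, 12518 and 13373 in the newborn libraries. As for Col1a1, the groups before and after E15.5 did not overlap and P0 replicate 1 was the highest. The log2 fold change of Col1a2 (chr6:4504814-4541544) was 2.49 ± 0.33 (SE; edgeR adjusted p = 7.59e-04) at E15.5 against E14.5 and 3.12 ± 0.34 (SE; edgeR adjusted p = 1.98e-05) over the whole span. Per kilobase of transcript, the ratio of Col1a1 to Col1a2 was 0.64 to 0.84 in the 6 libraries before E15.5 and 1.08 to 1.27 in the 9 later ones. The level of this ratio depends on the length used: with the exon lengths in the deposited table, which give Col1a2 12426 bases, it ran from 1.35 to 2.67 over all libraries.

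Markers of bone-forming cells moved with type I collagen. At E15.5 against E14.5, 12.7% of all genes tested were higher and 13.4% lower. Of 8 osteoblast markers other than collagens, 6 were higher at E15.5 than at E14.5 and 0 lower, with a median log2 fold change of 2.38. Their summed level was 113 to 213 CPM in the E13.5 libraries and 199 to 258 in those of E14.5, then 1610.0 to 2276 (E15.5), 1122 to 2917 (E16.5) and 1298 to 2465 (P0). None of the 8 was at 0 in any library. Ibsp, a mineral-binding protein of bone, went from 67.4 ± 22.5 to 1235 ± 287 CPM, with a log2 fold change of 4.20 ± 0.65 (SE; edgeR adjusted p = 0.00147). Dmp1, made by late osteoblasts and osteocytes, had a log2 fold change of 5.53 ± 0.41 (SE; edgeR adjusted p = 5.05e-05). Bglap, which encodes osteocalcin, was at 0.0497 CPM in the E14.5 mean and 3.10 in that of E15.5 (5.90 ± 0.76 (SE; edgeR adjusted p = 6.11e-04)). The E14.5 libraries held Bglap at 0.031, 0.076 and 0.042 CPM, with a lowest count of 2. The size of this fold change therefore rests on few reads. Without E14.5 replicate 1 the count of higher markers was again 6. The part of these cells in the collagen rise was not tested.

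Type III and type V collagens, which form fibrils together with type I in many soft tissues, rose less. Col3a1 was at 2147, 1547 and 2523 CPM in the E13.5 libraries and 1108, 2005 and 2891 CPM in those of E14.5. For Col3a1 the E15.5 libraries held 5305, 3885 and 3542 CPM, those of E16.5 5219.9, 4381 and 4288 and those of P0 5907, 5241 and 3919.9. All later libraries exceeded all earlier ones, by a narrower margin than for type I. The log2 fold change at E15.5 against E14.5 was 1.08 ± 0.31 (SE; edgeR adjusted p = 0.0230), and the call was lost without E14.5 replicate 1 (0.0838), E14.5 replicate 2 (0.0702), E15.5 replicate 1 (0.0728) or E15.5 replicate 2 (0.051), and in the fit with the 2 stages alone (0.0743), the numbers being edgeR adjusted p-values. Over the whole span it was 1.28 ± 0.31 (SE; edgeR adjusted p = 0.00380), a call kept in all 15 such fits.

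Col5a1 and Col5a2, which make the common type V trimer and limit fibril width, rose together. Col5a1 counts came to 617, 429 and 715 CPM in the E13.5 libraries and 303, 527 and 672 CPM in the E14.5 ones. Later Col5a1 values were 1646, 1209 and 1107 CPM (E15.5), 1197, 1243 and 1323 CPM (E16.5) and 1736, 1241 and 1077 CPM (P0). Col5a2 measured 461, 411 and 613 CPM in the E13.5 libraries, and the E14.5 libraries gave 275, 489 and 575 CPM. From E15.5 on, Col5a2 had 1439, 1084 and 1134 CPM, then 971, 1061 and 1372 at E16.5 and 1509.9, 1139.8 and 1136 in the newborn libraries. E14.5 replicate 1 was the lowest library for both, and all later libraries lay above all earlier ones. At E15.5 against E14.5 the log2 fold change was 1.40 ± 0.29 (SE; edgeR adjusted p = 0.00566) for Col5a1 and 1.45 ± 0.26 (SE; edgeR adjusted p = 0.00310) for Col5a2. Their ratio per kilobase stayed between 0.75 and 1.06 in all 15 libraries.

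The third type V chain behaved otherwise. Col5a3 was at 5.92, 4.83 and 8.497 CPM in the E13.5 libraries and 5.37, 7.55 and 12.8 CPM in those of E14.5. For Col5a3 the E15.5 libraries held 66.6, 40.8 and 28.6 CPM, those of E16.5 171, 116 and 81.8 and those of P0 169, 138 and 69.1. All later libraries lay above all earlier ones. The E16.5 mean exceeded that of E15.5, a step that did not pass the test (1.44 ± 0.43 (SE; edgeR adjusted p = 0.0966)). The log2 fold change of Col5a3 was 2.40 ± 0.44 (SE; edgeR adjusted p = 0.00344) at E15.5 against E14.5 and 4.29 ± 0.48 (SE; edgeR adjusted p = 2.24e-05) over the span, a 19.5-fold rise. Per kilobase it stood at 0.01 to 0.03 of Col5a1 before E15.5 and at 0.08 to 0.20 from E16.5 on.

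Col24a1, a minor fibrillar chain described in forming bone, peaked in the E15.5 mean. Col24a1 counts came to 18.4, 10.96 and 26.98 CPM in the E13.5 libraries and 13.8, 19.3 and 24.4 CPM in the E14.5 ones. Later Col24a1 values were 74.5, 61.8 and 69.4 CPM (E15.5), 35.2, 57.3 and 71.4 CPM (E16.5) and 52.98, 42.99 and 44.8 CPM (P0). The highest earlier library (26.98 CPM, E13.5 replicate 3) lay below the lowest later one (35.2 CPM, E16.5 replicate 1). Col24a1 changed by 1.84 ± 0.32 (SE; edgeR adjusted p = 0.00273) in log2 terms at E15.5 against E14.5 and 1.32 ± 0.32 (SE; edgeR adjusted p = 0.00369) over the span. Col27a1, another minor fibrillar chain known from cartilage, ranged from 45.5 to 184 CPM with overlapping stages. Its change over the span was -0.38 ± 0.37 (approximate 95% interval -1.10 to 0.33; edgeR adjusted p = 0.385).

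**Figure D4:**
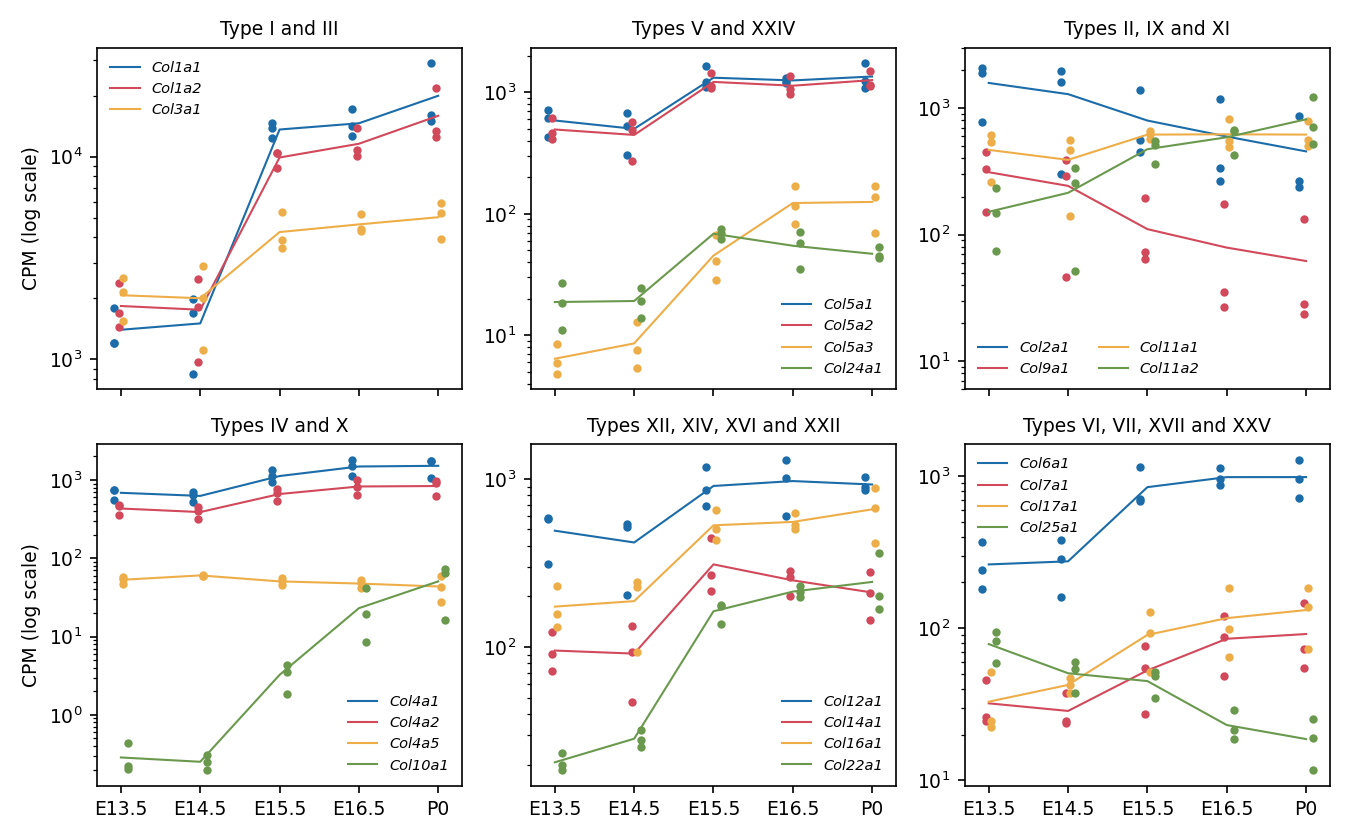
CPM of 23 collagen genes on a log scale by stage, in panels by type; points are single libraries and lines join stage means of 3 libraries. Col1a1 and Col1a2 cross above Col3a1 at E15.5, Col10a1 climbs from below 1 CPM to 16.2 to 71.9 CPM, Col4a5 stays within 27.6 to 61.8 CPM, and Col25a1 declines.

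Col2a1, the marker of cartilage fibrils, was not called in any comparison. Col2a1 measured 1911, 773 and 2058 CPM in the E13.5 libraries, and the E14.5 libraries gave 300.2, 1616 and 1952 CPM. From E15.5 on, Col2a1 had 451, 1381 and 560.0 CPM, then 1186, 264 and 338 at E16.5 and 865, 264 and 237 in the newborn libraries. Col2a1 (chr15:97975602-98004695) encodes type II collagen, the main fibril of cartilage. The libraries of a stage differed by up to several times: E13.5 replicate 2 and E14.5 replicate 1 were low, while E15.5 replicate 2, E16.5 replicate 1 and P0 replicate 1 were high for their stage. The log2 fold change was -0.69 ± 0.78 (SE; edgeR adjusted p = 0.535) at E15.5 against E14.5 and -1.80 ± 0.80 (SE; edgeR adjusted p = 0.0710) over the span, the latter with an approximate 95% interval of -3.36 to -0.23. DESeq2 gave an adjusted p of 0.0303 for the span, and edgeR gave 0.0313 without P0 replicate 1 and 0.0447 without E14.5 replicate 1, all past the threshold.

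Col11a2 was higher at P0 than at E13.5. Col11a2 was at 147, 74.7 and 232 CPM in the E13.5 libraries and 51.1, 257 and 334 CPM in those of E14.5. For Col11a2 the E15.5 libraries held 361, 513 and 547 CPM, those of E16.5 662, 426 and 675 and those of P0 1218, 521 and 708. Col11a2 and Col2a1 encode chains of the cartilage fibril, in which type XI sits at the core. E14.5 replicate 1 and E13.5 replicate 2 were again the lowest libraries, but P0 replicate 1 was the highest of all 15. Col11a2 had a log2 fold change of 2.43 ± 0.59 (SE; edgeR adjusted p = 0.00392) over the span and of 1.15 ± 0.57 (SE; edgeR adjusted p = 0.152) at E15.5 against E14.5, which did not pass. Col11a1 counts came to 535, 259 and 609 CPM in the E13.5 libraries and 141, 466 and 563 CPM in the E14.5 ones. Later Col11a1 values were 663, 624 and 565 CPM (E15.5), 497, 548 and 818 CPM (E16.5) and 792, 499 and 562 CPM (P0). Col11a1, its partner chain, was not called over the span, with 0.40 ± 0.43 (edgeR adjusted p = 0.439), and its E13.5 and P0 libraries overlapped. The ratio of Col11a2 to Col11a1 per kilobase was 0.39 to 0.54 at E13.5 and 1.48 to 2.19 at P0, and that of Col2a1 to Col11a2 was 9.36 to 13.7 at E13.5 and 0.35 to 0.75 at P0.

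Type IX collagen, the FACIT of cartilage fibrils, varied between libraries as Col2a1 did. Col9a1 measured 331, 149.6 and 453 CPM in the E13.5 libraries, and the E14.5 libraries gave 46.4, 290.2 and 392 CPM. From E15.5 on, Col9a1 had 63.8, 195 and 72.3 CPM, then 175, 26.97 and 34.96 at E16.5 and 134, 28.4 and 23.5 in the newborn libraries. Col9a2 and Col9a3 followed the same libraries, from 49.9 to 414 and from 46.01 to 479 CPM. Col9a3 was lower at P0 than at E13.5, with a log2 fold change of -2.02 ± 0.71 (SE; edgeR adjusted p = 0.0287). This call was lost when E13.5 replicate 1 or 3, or P0 replicate 2 or 3, was left out (edgeR adjusted p 0.0507, 0.0991, 0.101 and 0.0916). Col9a1 and Col9a2 did not pass over the span, with -2.33 ± 0.96 (SE; edgeR adjusted p = 0.0530) and -1.47 ± 0.66 (SE; edgeR adjusted p = 0.0749). Without P0 replicate 1 both passed (edgeR adjusted p 0.018 and 0.0386), and Col9a1 also passed without E14.5 replicate 1 (0.0362), E16.5 replicate 1 (0.035) or E16.5 replicate 2 (0.0495). DESeq2 called both (adjusted p 0.0138 and 0.0397), and the fit with the 2 stages alone called Col9a1 (0.044). The ratio of Col2a1 to Col9a1 per kilobase lay between 3.41 and 7.57 in all 15 libraries, while both levels spanned more than 8-fold.

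Other cartilage genes shared this pattern of high and low libraries. The sum of 8 non-collagen cartilage markers was 425, 222 and 546 CPM in the 3 E13.5 libraries and 107, 436 and 643 in those of E14.5, then 139, 305 and 175 (E15.5), 298, 165 and 210.1 (E16.5) and 256, 140.4 and 151 (P0). In each stage the library with the highest Col2a1 also had the highest sum, and the library with the lowest sum had the lowest Col2a1 in 4 of 5 stages. Of the 8 markers 0 were called at E15.5 against E14.5 (2 with an unadjusted p under 0.05, and their median log2 fold change was -0.74), and over the span 3 were lower (Sox9, Matn1 and Hapln1) and 2 higher (Comp and Snorc). Among all genes tested 26.1% were called at E15.5 against E14.5, and over the span 26.8% were lower and 29.8% higher. Leaving out E14.5 replicate 1 or P0 replicate 3 gave 1 marker called as lower at E15.5 in place of 0. None of the 8 was at 0 in any library. The share of cartilage in each dissected pool was not measured, and its part in these values was not tested.

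**Figure D5:**
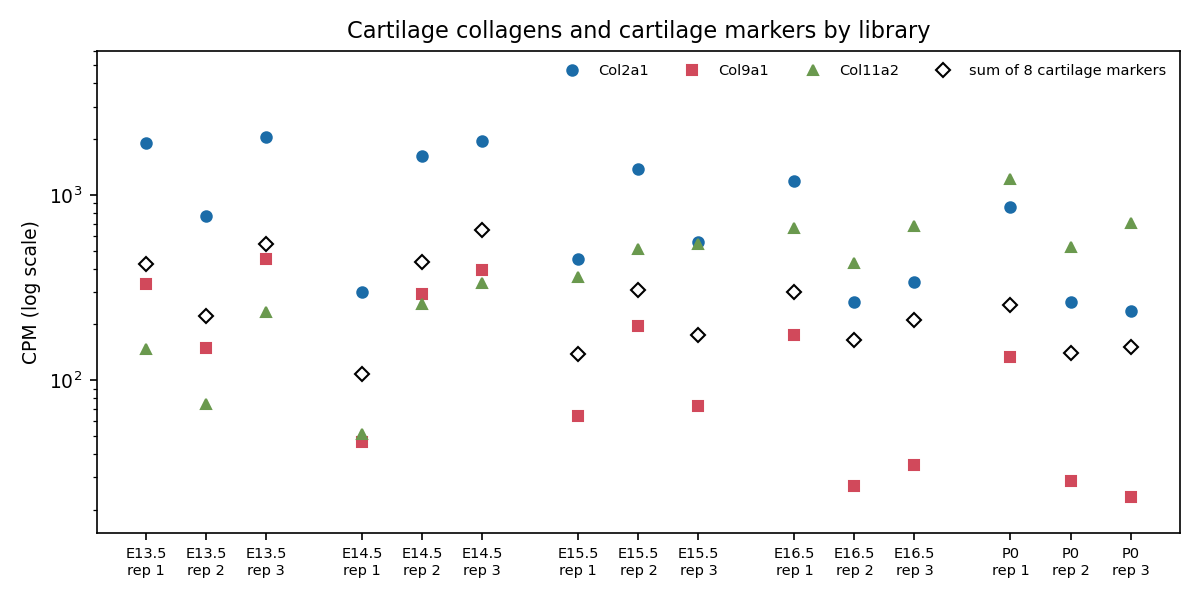
CPM on a log scale of Col2a1, Col9a1, Col11a2 and the sum of 8 non-collagen cartilage markers in each library. Col2a1, Col9a1 and the sum are low together in E14.5 replicate 1 and E13.5 replicate 2 and high together in E15.5 replicate 2, E16.5 replicate 1 and P0 replicate 1, while Col11a2 is higher at P0 (521 to 1218 CPM) than at E13.5 (74.7 to 232 CPM).

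Of the 6 other FACITs, 5 were higher at E15.5 than at E14.5, where 12.7% of all genes tested were higher. Col22a1 was at 18.6, 23.6 and 19.9 CPM in the E13.5 libraries and 28.1, 25.5 and 32.05 CPM in those of E14.5. For Col22a1 the E15.5 libraries held 178, 137 and 174 CPM, those of E16.5 212, 198 and 231 and those of P0 361, 202 and 169. Col22a1 (chr15:71795795-72034227) encodes type XXII collagen, known from the junctions of muscle with tendon. Its 6 earlier libraries lay within 18.6 to 32.05 CPM and the 9 later ones within 137 to 361 CPM, with no overlap. The log2 fold change was 2.51 ± 0.24 (SE; edgeR adjusted p = 1.54e-04) at E15.5 against E14.5 and 3.56 ± 0.25 (SE; edgeR adjusted p = 2.33e-06) over the span, the smallest adjusted p of the 44 genes in both comparisons.

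Markers of muscle and tendon were higher in the same libraries. The sum of 6 skeletal muscle markers was 135 to 252 CPM (E13.5), 134 to 640.3 (E14.5), 993 to 2823 (E15.5), 8159 to 24677 (E16.5) and 4169 to 23668 (P0), and 4 of 6 were higher at E15.5 than at E14.5 (median log2 fold change 2.35). For 6 tendon and ligament markers the sum was 40.8 to 109 CPM at E14.5 and 173 to 382 at E15.5, and 4 of 6 were higher (median 1.69). Among all genes tested 12.7% were higher at that step and 13.4% lower. The 12 markers were above 0 in all libraries, and 0 of them were lower. Both counts fell to 1 when E14.5 replicate 1, E14.5 replicate 2 or E15.5 replicate 1 was left out, and that of muscle to 2 when E15.5 replicate 2 was. In that order these fits called 2320 of 22824, 3259 of 22854, 5353 of 23063 and 2975 of 22732 genes tested. The main fit called 5773 of 22151. Among the muscle genes Ckm, the muscle creatine kinase, had 4.63 ± 1.07 (SE; edgeR adjusted p = 0.00929), kept in all 15 fits that leave out 1 library. Acta1 and Ttn, both of the sarcomere, had 2.81 ± 0.81 and 2.47 ± 0.67 (edgeR adjusted p 0.0249 and 0.0193). Of the tendon genes Fmod, a proteoglycan that binds collagen fibrils, had 2.02 ± 0.34 (SE; edgeR adjusted p = 0.00231), also kept in all 15, while Tnmd and Thbs4 had 2.88 ± 0.88 and 1.85 ± 0.58 (edgeR adjusted p 0.0313 and 0.0336). The calls of Acta1, Ttn, Tnmd and Thbs4 were each lost without E14.5 replicate 1, E14.5 replicate 2 or E15.5 replicate 1 (edgeR adjusted p 0.0625 to 0.184), and that of Acta1 also without E15.5 replicate 2 (0.0553). Their part in the Col22a1 rise was not tested.

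Type XIV, XVI and XII collagens, FACITs of dermis, tendon and other dense tissue, were also higher at E15.5. Col14a1 counts came to 91.4, 72.6 and 122 CPM in the E13.5 libraries and 47.04, 93.6 and 134 CPM in the E14.5 ones. Later Col14a1 values were 445, 269 and 216 CPM (E15.5), 285, 260.5 and 203 CPM (E16.5) and 278, 211 and 145 CPM (P0). For Col14a1 the highest mean was at E15.5, led by E15.5 replicate 1, and the log2 fold change was 1.76 ± 0.38 (SE; edgeR adjusted p = 0.00710) at that step and 1.15 ± 0.38 (SE; edgeR adjusted p = 0.0204) over the span. The latter was lost without E13.5 replicate 1 (edgeR adjusted p 0.0614), E13.5 replicate 2 (0.0809) or P0 replicate 1 (0.0753). Col16a1 measured 158, 133 and 232 CPM in the E13.5 libraries, and the E14.5 libraries gave 93.5, 226 and 243 CPM. From E15.5 on, Col16a1 had 649, 505 and 434 CPM, then 501, 532 and 630.2 at E16.5 and 885, 417 and 673 in the newborn libraries. Col16a1 had 1.50 ± 0.36 (SE; edgeR adjusted p = 0.0107) at the step and 1.92 ± 0.36 (SE; edgeR adjusted p = 7.47e-04) over the span, both kept in all 15 fits that leave out 1 library. Col12a1 was at 584, 312 and 579 CPM in the E13.5 libraries and 205, 514 and 537 CPM in those of E14.5. For Col12a1 the E15.5 libraries held 1175, 852 and 693 CPM, those of E16.5 600.4, 1011 and 1298 and those of P0 1031, 892 and 852. Col12a1 was near the threshold, with 1.12 ± 0.38 (SE; edgeR adjusted p = 0.0464), and kept its call in 6 of those 15 fits. It was lost without any 1 of the 3 E15.5 libraries, E14.5 replicate 1 or 2, E13.5 replicate 1 or 3, E16.5 replicate 2 or P0 replicate 2 (edgeR adjusted p 0.0504 to 0.163), with the replicate block (0.0579) and with the 2 stages alone (0.0857). Its value over the span was 0.91 ± 0.38 (SE; edgeR adjusted p = 0.0549), which 7 alternative fits brought under the threshold: DESeq2 (0.0329), upper-quartile scaling (0.0467), scaling that leaves out the collagens (0.0495), a minimum mean of 1 CPM (0.0411), the 2 stages alone (0.029), and without E14.5 replicate 1 (0.0241) or E16.5 replicate 1 (0.0408).

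Col20a1, a FACIT of low level, had 7.04 ± 1.41 CPM at E14.5 and 14.8 ± 0.316 at E15.5 (log2 fold change 1.07 ± 0.23 (SE; edgeR adjusted p = 0.00619)), and 19.6 ± 1.48 at P0. Its stages before and after E15.5 did not overlap. Col19a1 remained at 0.17 to 4.40 CPM without a call in any comparison.

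Among network collagens Col10a1 stood out. Col10a1 counts came to 0.201, 0.225 and 0.431 CPM in the E13.5 libraries and 0.249, 0.197 and 0.309 CPM in the E14.5 ones. Later Col10a1 values were 1.85, 3.58 and 4.295 CPM (E15.5), 41.1, 8.41 and 19.6 CPM (E16.5) and 71.9, 64.03 and 16.2 CPM (P0). Col10a1 (chr10:34389981-34397085) encodes type X collagen, the classic product of hypertrophic cartilage cells. Its 6 earlier libraries were all under 0.5 CPM, the 3 E15.5 libraries lay between 1.85 and 4.30, and the later ones spread widely. The log2 fold change was 3.67 ± 0.69 (SE; edgeR adjusted p = 0.00353) at E15.5 against E14.5 and 7.46 ± 0.78 (SE; edgeR adjusted p = 1.45e-05) over the span, the highest of the family in both. It was also the only collagen called between E15.5 and E16.5, at 2.83 ± 0.62 (SE; edgeR adjusted p = 0.0483). That last call was kept without E16.5 replicate 2, E16.5 replicate 3 or P0 replicate 3, and lost without any 1 of the other 12 libraries, in the fit with only the libraries of the 2 stages, and in the fit with the replicate number as a block.

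Type IV collagen of basement membranes showed one pair that rose and others that did not. Col4a1 measured 753, 558 and 745 CPM in the E13.5 libraries, and the E14.5 libraries gave 516, 709 and 652 CPM. From E15.5 on, Col4a1 had 1323, 1108 and 935 CPM, then 1812, 1510.4 and 1136 at E16.5 and 1762, 1733 and 1054 in the newborn libraries. Col4a2 was at 475, 357 and 463 CPM in the E13.5 libraries and 316, 451 and 399.7 CPM in those of E14.5. For Col4a2 the E15.5 libraries held 761, 679 and 544 CPM, those of E16.5 1009, 819 and 648 and those of P0 970.4, 918 and 621. The pair lies side by side on chromosome 8, and Col4a1 exceeded Col4a2 by 1.52 to 1.84 times per kilobase in all 15 libraries. Their log2 fold changes at E15.5 against E14.5 were 0.84 ± 0.24 (SE; edgeR adjusted p = 0.0219) and 0.77 ± 0.22 (SE; edgeR adjusted p = 0.0243). Both calls were lost without E14.5 replicate 1 (edgeR adjusted p 0.106 and 0.117), E15.5 replicate 1 (0.0697 and 0.0751) or E15.5 replicate 2 (0.0583 and 0.0709). Over the span both were kept in all 15 fits, at 1.15 ± 0.24 (SE; edgeR adjusted p = 0.00141) and 0.95 ± 0.22 (SE; edgeR adjusted p = 0.00290).

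Endothelial cells are a known source of this pair. The sum of 6 endothelial markers was 277 to 379 CPM at E14.5 and 396 to 467 at E15.5, with no overlap, and 436 to 703 at E16.5. Of the 6 markers 0 were called at E15.5 against E14.5 (1 with an unadjusted p under 0.05; median log2 fold change 0.45), and 3 of 6 were higher over the span. Leaving out E16.5 replicate 1 or P0 replicate 1 gave 1 called as higher at E15.5. Among all genes tested 26.1% were called at E15.5 against E14.5, and 29.8% were higher over the span. All 6 were above 0 in every library, and their part in the rise was not tested.

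The minor type IV chains replace this pair in special basement membranes such as those of kidney and lung. Col4a5 ranged from 27.6 to 61.8 CPM and Col4a6 from 6.27 to 25.2 CPM, neither called in any step. Over the span Col4a5 had -0.28 ± 0.21 (approximate 95% interval -0.69 to 0.13) and Col4a6 0.04 ± 0.36 (-0.68 to 0.75), intervals that leave out a doubling of either gene. Without P0 replicate 2 Col4a5 was called as lower (edgeR adjusted p 0.025). Relative to Col4a1 per kilobase, Col4a5 stood at 0.074 to 0.086 in the E13.5 libraries and at 0.016 to 0.042 in those of P0. Col4a3 and Col4a4 were under 8 CPM in all libraries. Both passed the test over the 5 stages (edgeR adjusted p 0.0179 and 0.00902), with their highest means, 1.66 ± 0.909 and 4.47 ± 2.75 CPM, at E16.5, but in none of the 5 comparisons of 2 stages. Over the span Col4a3 passed without E14.5 replicate 2 (edgeR adjusted p 0.0385).

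Type VIII collagen, a network former of vessel walls and the cornea, was not called. Col8a1 ranged from 44.04 to 127 CPM and Col8a2 from 109 to 371 CPM over all libraries. Over the span the log2 fold change was 0.12 ± 0.31 for Col8a1 (-0.49 to 0.73) and 0.05 ± 0.32 for Col8a2 (-0.59 to 0.68).

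Type VI collagen rose through its 3 main chains. Col6a1 counts came to 240.4, 180.4 and 366 CPM in the E13.5 libraries and 161, 283 and 381 CPM in the E14.5 ones. Later Col6a1 values were 1143, 704 and 684 CPM (E15.5), 1124, 957 and 865 CPM (E16.5) and 1277, 953 and 718 CPM (P0). Col6a3 measured 409.9, 269 and 498 CPM in the E13.5 libraries, and the E14.5 libraries gave 249, 407 and 482 CPM. From E15.5 on, Col6a3 had 1283, 1028 and 956 CPM, then 906, 1060.2 and 1133 at E16.5 and 1053, 897 and 691 in the newborn libraries. Type VI filaments anchor cells in soft connective tissue and muscle, and are built from an alpha 1, an alpha 2 and a long alpha 3 chain. Col6a2 lies next to Col6a1 on chromosome 10. Per kilobase, Col6a1 stood at 0.78 to 0.86 of Col6a2 in the E13.5 and E14.5 libraries and at 0.92 to 1.07 in the later ones. The level of this ratio depends on the length used. With the exon lengths in the deposited table it ran from 1.55 to 2.12 over all libraries. At E15.5 against E14.5 the log2 fold changes were 1.62 ± 0.35 (SE; edgeR adjusted p = 0.00678) for Col6a1, 1.42 ± 0.32 (SE; edgeR adjusted p = 0.00866) for Col6a2 and 1.52 ± 0.27 (SE; edgeR adjusted p = 0.00286) for Col6a3. All 3 calls held in all 15 fits that leave out 1 library.

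The alternative type VI chains were less abundant. Col6a6 was at 10.6, 8.47 and 13.2 CPM in the E13.5 libraries and 6.74, 8.14 and 24.4 CPM in those of E14.5. For Col6a6 the E15.5 libraries held 90.97, 33.2 and 34.8 CPM, those of E16.5 69.6, 73.5 and 49.3 and those of P0 50.5, 65.3 and 21.9. Col6a6 overlapped between early and late libraries because E14.5 replicate 3 was as high as 24.4 CPM and P0 replicate 3 as low as 21.9. It had a log2 fold change of 2.02 ± 0.55 (SE; edgeR adjusted p = 0.0191), and Col6a5, which stayed under 4 CPM, had 2.08 ± 0.56 (SE; edgeR adjusted p = 0.0175). Both calls at this step were lost without E14.5 replicate 1 (edgeR adjusted p 0.0899 and 0.0871), E14.5 replicate 2 (0.0772 and 0.073) or E15.5 replicate 1 (0.0744 and 0.0569), and that of Col6a6 also with the 2 stages alone (0.0612). Col6a4 lay between 0.79 and 5.27 CPM and was not called, but without P0 replicate 3 it was lower over the span (edgeR adjusted p 0.0119).

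The collagens of the epithelial base were higher at P0 than at E13.5. Col17a1 encodes the transmembrane collagen of hemidesmosomes, and Col7a1 the anchoring fibril below them. Col17a1 counts came to 24.6, 22.6 and 51.4 CPM in the E13.5 libraries and 37.7, 42.6 and 46.8 CPM in the E14.5 ones. Later Col17a1 values were 51.5, 92.5 and 127 CPM (E15.5), 65.1, 99.4 and 184 CPM (E16.5) and 72.8, 137 and 185 CPM (P0). Col7a1 measured 26.1, 24.4 and 45.6 CPM in the E13.5 libraries, and the E14.5 libraries gave 24.4, 37.6 and 23.8 CPM. From E15.5 on, Col7a1 had 27.4, 54.4 and 76.5 CPM, then 48.6, 87.5 and 119 at E16.5 and 54.6, 72.6 and 147 in the newborn libraries. Replicate 3 was the highest library of all 5 stages for Col17a1, and of all but E14.5 for Col7a1. At E15.5 against E14.5 Col17a1 had 1.09 ± 0.46 (SE; edgeR adjusted p = 0.0955) and Col7a1 0.89 ± 0.46 (SE; edgeR adjusted p = 0.167). Col17a1 passed at that step with the replicate number as a block (0.0138) and with the 2 stages alone (0.04). Over the span Col17a1 had 2.00 ± 0.47 (SE; edgeR adjusted p = 0.00313) and Col7a1 1.51 ± 0.46 (SE; edgeR adjusted p = 0.0143). The Col7a1 call was lost without E13.5 replicate 1 (edgeR adjusted p 0.0561), E13.5 replicate 2 (0.0581) or P0 replicate 3 (0.0743).

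Oral epithelial markers had the same high libraries. Their sum over 6 genes was 457, 1089.5 and 1717 CPM in the 3 E15.5 libraries, 1020.0, 1239 and 2262 at E16.5 and 972, 2029.7 and 3122 at P0, against 234 to 541 CPM at E13.5, and replicate 3 was the highest of all 5 stages. Of the 6 markers 4 were higher at P0 than at E13.5 and 0 lower (median log2 fold change 1.82), against 29.8% and 26.8% of all genes tested. None of the 6 was at 0 in any library. At E15.5 against E14.5 only Krt15, a basal keratin, was called, at 69.1 and 269 CPM in the E14.5 and E15.5 means (edgeR adjusted p = 0.0195), lost without E14.5 replicate 1 or 2 or E15.5 replicate 2 or 3 (0.054 to 0.0939). The part of epithelium in the Col17a1 and Col7a1 values was not tested.

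Further members of the class rose. Col13a1 was at 12.9, 7.06 and 14.9 CPM in the E13.5 libraries and 8.69, 15.6 and 13.96 CPM in those of E14.5. For Col13a1 the E15.5 libraries held 29.8, 33.9 and 43.7 CPM, those of E16.5 42.6, 51.4 and 75.8 and those of P0 79.4, 35.8 and 76.3. Col13a1, a transmembrane collagen of cell-matrix and nerve-muscle junctions, had 1.49 ± 0.36 (SE; edgeR adjusted p = 0.0115) at E15.5 against E14.5 and 2.46 ± 0.37 (SE; edgeR adjusted p = 1.61e-04) over the span. Its first call was lost without E14.5 replicate 1 (edgeR adjusted p 0.062). Col28a1 counts came to 3.34, 3.62 and 4.19 CPM in the E13.5 libraries and 3.82, 5.84 and 5.17 CPM in the E14.5 ones. Later Col28a1 values were 59.4, 18.1 and 14.97 CPM (E15.5), 20.5, 79.4 and 23.6 CPM (E16.5) and 47.5, 13.1 and 12.4 CPM (P0). Col28a1, known from the basement membrane around Schwann cells, varied strongly after E15.5, with high values in E15.5 replicate 1, E16.5 replicate 2 and P0 replicate 1. It had 2.64 ± 0.69 (SE; edgeR adjusted p = 0.0161) at the step, lost without E14.5 replicate 1 (0.0788) or E15.5 replicate 1 (0.0633), and 2.71 ± 0.69 (SE; edgeR adjusted p = 0.00528) over the span.

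The same 3 libraries held the highest sums of Schwann cell markers within their stages. That sum over 6 genes was 387, 295 and 247 CPM at E15.5, 287, 565 and 295 at E16.5 and 621, 223 and 418 at P0, and 152 to 189 CPM at E14.5. Their median log2 fold change at E15.5 against E14.5 was 0.63, and none was at 0 in any library. Whether nerve tissue has a part in the Col28a1 values was not tested.

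Col15a1 and Col18a1 encode the multiplexins, basement membrane collagens that carry sugar chains. Col15a1 measured 103, 65.8 and 114 CPM in the E13.5 libraries, and the E14.5 libraries gave 39.8, 76.3 and 97.5 CPM. From E15.5 on, Col15a1 had 184, 145 and 126 CPM, then 305, 211 and 159.6 at E16.5 and 224, 257 and 125 in the newborn libraries. Col15a1 had 1.09 ± 0.36 (SE; edgeR adjusted p = 0.0420) at E15.5 against E14.5, and 1.10 ± 0.36 (SE; edgeR adjusted p = 0.0200) over the span. The first call was lost without any 1 of the 3 E15.5 libraries, E14.5 replicate 1 or 2, E13.5 replicate 1 or E16.5 replicate 2 (edgeR adjusted p 0.0552 to 0.165), with the replicate number as a block (0.0681) and with the libraries of the 2 stages alone (0.0588). The second was lost without E13.5 replicate 2 (0.0841) or P0 replicate 2 (0.0746). Col18a1 varied little: its 15 libraries lay between 209 and 330 CPM, and its log2 fold change over the span was 0.07 ± 0.17 (approximate 95% interval -0.26 to 0.41; edgeR adjusted p = 0.733).

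A small set of collagens went down. Col25a1 was at 94.9, 58.97 and 81.9 CPM in the E13.5 libraries and 37.7, 60.3 and 53.6 CPM in those of E14.5. For Col25a1 the E15.5 libraries held 51.7, 48.1 and 34.8 CPM, those of E16.5 18.6, 29.1 and 21.6 and those of P0 19.1, 25.2 and 11.7. Col25a1, a transmembrane collagen needed for motor nerves to reach muscle, had -2.07 ± 0.30 (SE; edgeR adjusted p = 1.18e-04) at P0 against E13.5, a 4.20-fold fall with no overlap between the 2 stages. Col26a1 counts came to 306, 271 and 481 CPM in the E13.5 libraries and 198, 321 and 339 CPM in the E14.5 ones. Later Col26a1 values were 342, 282 and 307 CPM (E15.5), 130.2, 202 and 179 CPM (E16.5) and 183, 96.7 and 189 CPM (P0). Col26a1, a short secreted collagen whose product is also called Emid2, had -1.18 ± 0.30 (SE; edgeR adjusted p = 0.00496), and its E13.5 libraries lay above its P0 libraries. Both calls held in all 15 fits that leave out 1 library. Col23a1, a transmembrane collagen, went from 120.0 ± 36.8 to 64.1 ± 12.96 CPM with a log2 fold change of -0.90 ± 0.24 (SE; edgeR adjusted p = 0.00607). None of these 3 was called at E15.5 against E14.5, with values of -0.17, 0.12 and -0.25.

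Upstream sequence was examined for the 2 members with the largest fold changes over the span. The windows below are the 250 bases before the RefSeq start on GRCm38.p6, and they overlap no annotated exon. Capitals mark matches on either strand to the CCAAT box, to GGGCGG, a site of Sp1-like factors that reads CCGCCC on the other strand, to the TATAAA box and to AACCACA, a core bound by Runx factors.
Col10a1, chr10:34389731-34389980, plus strand: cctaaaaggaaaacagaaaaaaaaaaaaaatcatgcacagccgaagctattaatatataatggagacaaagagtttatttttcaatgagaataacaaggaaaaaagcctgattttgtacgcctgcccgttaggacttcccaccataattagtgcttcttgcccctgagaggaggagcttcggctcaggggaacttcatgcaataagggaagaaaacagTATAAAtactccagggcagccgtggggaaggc
Col5a3, chr9:20815068-20815317, minus strand: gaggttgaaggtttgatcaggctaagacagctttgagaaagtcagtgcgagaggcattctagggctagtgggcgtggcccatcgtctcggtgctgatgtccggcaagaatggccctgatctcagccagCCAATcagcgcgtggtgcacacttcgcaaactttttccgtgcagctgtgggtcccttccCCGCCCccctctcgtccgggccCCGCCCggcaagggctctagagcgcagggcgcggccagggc
Col10a1 holds 1 TATAAA and none of the others, and Col5a3 holds 1 CCAAT and 2 CCGCCC. Promoter entries were found for 35 of the 44 genes, as 38 windows, some of which overlap exons. GGGCGG was found in 57.9% of these windows and in 32.7% of all 32851 RefSeq windows. The other shares were 34.2% against 33.8% for CCAAT, 13.2% against 12.4% for TATAAA and 2.63% against 4.40% for AACCACA. A match is a run of letters and was not tested for any role in these data.

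Some genes that make and secrete the collagen molecule were among those that rose at the same step, and many of these calls were lost without E14.5 replicate 1. Of 19 genes for the hydroxylation and folding of procollagen, 10 were higher at E15.5 than at E14.5 and 0 lower (median log2 fold change 0.71, against 0.03 over all genes). At that step 12.7% of all genes tested were higher and 13.4% lower. Without E14.5 replicate 1 only 1 of the 19, P4ha2, was called, with a median of 0.61. That fit called 2320 of 22824 genes tested in either direction, against 5773 of 22151 in the main fit. Leaving out E14.5 replicate 2 gave 3 (3259 of 22854 genes tested). Without E15.5 replicate 1 or 3 the count was 4 (5353 of 23063 and 3010 of 22707), and without E15.5 replicate 2 it was 6 (2975 of 22732). P4ha2, a catalytic subunit of prolyl 4-hydroxylase, had 25.7, 39.6 and 46.9 CPM in the 3 E14.5 libraries and 116, 89.02 and 111 at E15.5, a log2 fold change of 1.50 ± 0.27 (SE; edgeR adjusted p = 0.00321). Fkbp10, a folding enzyme of the endoplasmic reticulum, had 1.20 ± 0.31 (SE; edgeR adjusted p = 0.0144), and P3h1, which hydroxylates selected prolines, 1.10 ± 0.28 (SE; edgeR adjusted p = 0.0153), both lost without E14.5 replicate 1 (0.0635 and 0.0666). Over the span 9 of the 19 were higher (5 without E13.5 replicate 2) and 1, P4ha3, was lower, where 29.8% of all genes were higher and 26.8% lower.

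Export and trimming of procollagen gave 6 of 13 higher and 0 lower at that step (median 0.61), and 4 of 13 without E14.5 replicate 1 (median 0.41). The main fit called 5773 of 22151 genes tested, and the fit without that library 2320 of 22824. Pcolce, which enhances removal of the C-propeptide, had 30.7, 61.2 and 74.3 CPM at E14.5 and 253, 230.2 and 253 at E15.5, with a log2 fold change of 2.15 ± 0.32 (SE; edgeR adjusted p = 0.00134). Adamts14, an N-propeptide protease, had 1.83 ± 0.36 (SE; edgeR adjusted p = 0.00453), and Creb3l1, a transcription factor activated in the secretory pathway of osteoblasts, 1.79 ± 0.28 (SE; edgeR adjusted p = 0.00153). All 3 calls held in all 15 fits that leave out 1 library. Over the span 5 of 13 were higher and 3 lower (Sec23a, Tll1 and Adamts3), against the same 29.8% and 26.8% of all genes.

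Lysyl oxidases, which crosslink collagen outside the cell, gave 4 of 5 higher and 0 lower at E15.5 against E14.5 (median 1.11), and 2 of 5 without E14.5 replicate 1 or 2. Without those libraries in turn, 2320 of 22824 and 3259 of 22854 genes tested were called, against 5773 of 22151 in the main fit. At that step 12.7% of all genes tested were higher and 13.4% lower. Loxl4 had 2.46, 3.03 and 3.75 CPM at E14.5 and 25.6, 24.4 and 32.7 at E15.5, with 3.16 ± 0.42 (SE; edgeR adjusted p = 7.34e-04). The more abundant Lox had 1.24 ± 0.31 (SE; edgeR adjusted p = 0.0124) and Loxl2 1.11 ± 0.30 (SE; edgeR adjusted p = 0.0204), while Loxl3 was not called. The Loxl2 call was lost without E14.5 replicate 1 or 2 or E15.5 replicate 1 or 3 (0.0542 to 0.0857). Of 8 collagen receptors 2 were higher and 0 lower (median 0.58), namely Itga10 (2.14 ± 0.28 (SE; edgeR adjusted p = 6.17e-04)) and Itga11 (1.45 ± 0.36 (SE; edgeR adjusted p = 0.0130)), integrin chains that bind collagens. That count was 4 or 5 without E14.5 replicate 3, E16.5 replicate 1 or any 1 of the 3 P0 libraries. Over the span 4 of the 8 were higher, 2 without E13.5 replicate 2, where 29.8% of all genes tested were higher. The single lower receptor was Ddr2, a receptor kinase for fibrillar collagen, with -1.43 ± 0.25 (SE; edgeR adjusted p = 4.74e-04).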

How the data were processed

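Bulk RNA-seq was made from pooled wild-type palates, 3 libraries at each of 5 stages. Values are raw read counts per gene, which the authors deposited in 1 table. Per the file headers, the counts were made with featureCounts 2.0.1 in reverse-stranded paired-end mode on GENCODE M18, with no option to count multi-mapping or overlapping fragments. The submitters' processing notes name cutadapt 3.4, HISAT2 2.2.1, Bowtie2, SAMtools and mm10 without their roles. Among the collagens only Col3a1, Col7a1 and Col20a1 share exon bases with another gene on their strand (at most 1.54%).

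Here, CPM were computed with TMM-scaled library sizes. Genes passed edgeR's filterByExpr (minimum count 10), which left 22151 genes and all 44 collagens. The edgeR 4.0.16 quasi-likelihood test (R 4.3.3) used 1 term per stage over all 15 libraries, with Benjamini-Hochberg adjustment over all genes tested and a threshold of 0.05. Approximate 95% intervals are the estimate ± 1.96 SE. The procedure was tested on simulated data. Alternatives were DESeq2 1.42.0, other scalings and filters, a prior count of 0.5, a replicate block, 2-stage fits and leaving out each library. Shares of counts were compared by exact permutation. Levels per kilobase used the main GENCODE M21 coding transcript. All genes and pathway or marker lists were chosen with earlier results of these data known. Genes named are Col1a1, Col2a1, collagens with an adjusted p under 0.05 and a log2 change of at least 1 in E15.5 against E14.5 or P0 against E13.5, other chains of their types, and in each list at most the 3 largest such changes per direction at E15.5 against E14.5; the remaining collagens, Ddr2, P4ha3, Sec23a, Tll1 and Adamts3, and the cartilage markers called over the span were named after their values were seen. The labels do not say that libraries come from separate litters, so p-values measure the spread between these pools. The result of 1 further marker gene is not reported here.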

Additional observations from a re-analysis of the deposited data

How the results depend on the processing

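The counts of collagens called were recomputed under each alternative (the 5-stage test without the 2-stage fit), and the share from E13.5 to P0 with 3 other denominators or units and without each library of those stages. With 1 library left out at a time, the count of collagens called at E15.5 against E14.5 ran from 14 (without E14.5 replicate 1) to 23, with 15 without E15.5 replicate 1. The count at E16.5 against E15.5 ran from 0 to 1, that at P0 against E13.5 from 26 to 32, that over the 5 stages from 29 to 32, and the gain in collagen share from E13.5 to P0 from 2.92 to 4.15 percentage points around 3.61. Over all genes tested, the calls in these fits ran from 0 to 969 at E16.5 against E15.5. They ran from 10668 to 13089 at P0 against E13.5 and from 11464 to 13509 over the 5 stages. Fits of the gene lists and of the share at E15.5 against E14.5, where the gain ran from 2.74 to 3.31 points around 3.06, were added after the data were seen. At E16.5 against E15.5, DESeq2 called 5 collagens (and 9.45% of all genes) and the fit with the libraries of the 2 stages alone called 0, around 1. Counted per kilobase of exon, the gain in share was 1.19 points. Upper-quartile scaling moved the median of all genes at E15.5 against E14.5 from 0.03 to 0.16. Of 1822 alternative values for 38 named genes, 1725 kept their direction and side of the threshold, 53 lost a call, 24 gained one and 20 turned sign, all of the last in results that were not called. For Col6a4 at E15.5 against E14.5 (-0.03) these were 0.11 with upper-quartile scaling, 0.029 with scaling that leaves out the collagens, 0.026 with no filter and 0.065 with a minimum mean of 1 CPM. Leaving out 1 library gave ranges of -0.31 to 0.27 for Col6a4, -0.10 to 0.25 for Col26a1 and -0.22 to 0.38 for Col4a4 at that step, and over the span of -1.46 to 0.32 for Col6a4, -0.56 to 0.0032 for Col4a5 and -0.43 to 0.41 for Col4a6.

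Same-numbered libraries deviated together in some pairs only: 9 of 30 had a correlation of deviations over 0.1 (range -0.30 to 0.55). The mean was 0.059, against -0.032 for pairs of different number. At E14.5 against E13.5 the replicate block raised the calls among all genes from 2 to 135. With the block the counts of collagens called were 0, 22, 0, 0 and 29 in the order of the 5 comparisons above. Without it they were 0, 23, 1, 0 and 29. Calls over all genes tested were 135, 5860, 422, 35 and 12595 with the block, and 2, 5773, 312, 78 and 12535 without. Over the 5 stages the count of collagens was 30 with the block and 31 without, and that of all genes 13151 and 13081. The block turned Col4a6 over the span to -0.024.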
